A study of Mus musculus with 6 samples.

Results

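Genes of the unfolded protein response and of protein folding in the endoplasmic reticulum (ER) were followed in mouse liver. The set was fixed by name: 39 symbols that cover ER lumen chaperones, disulfide bond enzymes, the 3 sensor arms with their integrated stress targets, ER-associated degradation and 1 translocon subunit. All 39 were listed in the tables, among 16426 genes listed in at least 1 liver, and all 39 passed the filter on low counts that left 12230 genes for the test. Total RNA from 6 livers had been sequenced, 3 from mice given a scramble shRNA and 3 from mice given an S1PR2 shRNA. S1PR2 is a cell surface receptor for the lipid sphingosine 1-phosphate. Both shRNAs were carried by an AAV8 vector, a virus that transduces liver efficiently, injected into the tail vein. The mice had a mixed B6:sv129 background and were 7 to 12 weeks old. By the series text all were male and took dexamethasone, a synthetic glucocorticoid, at about 0.84 mg/kg for 7 days in drinking water, so the scramble livers were exposed to it too. No liver without dexamethasone was analysed here. The sources used here do not give the promoter that drives the hairpins or the cell types that carried the vector. The labels number the livers within each group but do not say that each came from a separate mouse, so p-values measure the spread between these samples, which may be partly technical.

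The ER folds and glycosylates secreted and membrane proteins, and hepatocytes, which secrete most plasma proteins, carry a large ER. When unfolded proteins build up, the unfolded protein response starts from 3 membrane sensors. IRE1 splices Xbp1 mRNA into the form that encodes an active transcription factor, ATF6 is cut in the Golgi to release a transcription factor, and PERK phosphorylates eIF2α, which lowers translation in general and favours translation of ATF4. These factors raise the genes for chaperones, disulfide isomerases and the machinery that exports misfolded proteins for degradation. Splicing, cleavage and phosphorylation were not measured by these libraries, which report the amount of each mRNA.

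ATF6 and XBP1 are known to act through the ER stress element, which reads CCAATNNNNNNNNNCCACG, and the sequences below are shown because they mark which of the 39 promoters carry it. RefSeq promoter windows of GRCm38.p6, from 250 bases before to 50 bases after the gene start, matched 34 of the 39 genes by gene ID. Those of Hyou1, Manf, Atf6, Ppp1r15b and Derl1 were not in the table. Searched on both strands, the element was found in 10 of the 34 windows (29.4%), against 18 of the 9801 tested genes with a window (0.184%) and 39 of all 32851 windows (0.119%). The 18 genes include the 10 of the set. Hsp90b1 had 2, which made 11 elements, lying 44 to 212 bases before the start, 6 of them on the strand of the gene. Each is written below on the strand where CCAAT comes first, 5′ to 3′, with the fixed ends in capitals.
Hspa5: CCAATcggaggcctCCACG
Hsp90b1, first: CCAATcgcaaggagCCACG
Hsp90b1, other: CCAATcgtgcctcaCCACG
Creld2: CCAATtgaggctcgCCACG
Dnajc3: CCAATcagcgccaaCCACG
Calr: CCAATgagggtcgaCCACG
Canx: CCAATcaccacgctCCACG
Pdia6: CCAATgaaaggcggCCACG
Ero1lb: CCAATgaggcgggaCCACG
Syvn1: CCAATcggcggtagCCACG
Derl3: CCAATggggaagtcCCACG

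The whole windows of 4 genes are printed on the gene strand, all of them plus-strand genes, to place the element in its promoter. They are Hspa5, the classic promoter of this kind, at chr2:34771840-34772139, Creld2 at chr15:88819396-88819695, Derl3 at chr10:75893148-75893447 and Dnajb11 at chr16:22857595-22857894. Creld2 and Derl3 rose in the knockdown and carry the element. Dnajb11 fell and carries instead element II, ATTGGNCCACG, which was found in 2 of the 34 windows (Dnajb11 and Herpud1) and in 0.0816% of the tested genes with a window. The choice of windows does not tie an element to a direction. Of the 10 genes with the first element 8 did not pass the test described below, and neither did Herpud1. Capitals mark the element or element II; in Creld2 and Derl3 the element runs on the other strand and so reads reversed and complemented.
Hspa5 window: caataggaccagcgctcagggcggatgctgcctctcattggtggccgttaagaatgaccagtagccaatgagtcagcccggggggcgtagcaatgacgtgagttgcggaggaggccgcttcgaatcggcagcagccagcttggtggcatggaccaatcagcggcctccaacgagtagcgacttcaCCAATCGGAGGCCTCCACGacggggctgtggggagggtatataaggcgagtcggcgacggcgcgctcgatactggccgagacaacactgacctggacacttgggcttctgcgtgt
Creld2 window: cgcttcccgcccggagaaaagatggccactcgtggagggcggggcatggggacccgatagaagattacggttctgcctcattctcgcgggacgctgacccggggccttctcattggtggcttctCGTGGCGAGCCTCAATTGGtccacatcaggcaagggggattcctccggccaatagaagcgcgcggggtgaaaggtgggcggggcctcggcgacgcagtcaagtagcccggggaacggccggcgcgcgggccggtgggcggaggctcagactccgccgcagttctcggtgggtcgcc
Derl3 window: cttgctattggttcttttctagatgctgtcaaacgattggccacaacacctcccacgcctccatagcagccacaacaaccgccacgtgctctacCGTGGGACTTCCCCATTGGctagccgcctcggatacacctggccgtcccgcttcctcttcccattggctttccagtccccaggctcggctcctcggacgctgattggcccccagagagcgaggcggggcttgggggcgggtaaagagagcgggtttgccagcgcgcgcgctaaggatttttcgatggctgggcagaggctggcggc
Dnajb11 window: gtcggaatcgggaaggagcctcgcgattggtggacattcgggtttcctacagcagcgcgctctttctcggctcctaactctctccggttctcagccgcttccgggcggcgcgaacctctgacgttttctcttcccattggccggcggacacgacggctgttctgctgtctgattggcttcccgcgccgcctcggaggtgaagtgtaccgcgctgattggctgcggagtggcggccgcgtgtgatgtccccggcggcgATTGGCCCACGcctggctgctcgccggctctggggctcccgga

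The other motifs gave the following counts. The short site CCACG, which is also the end of the elements above, was found in 26 of the 34 windows (76.5%) and in 51.4% of the tested genes with a window. The core of the UPR element, TGACGTGG, was found in 0 of 34 windows and in 0.969% of tested genes with one. The amino acid response core TGATGNAA, bound by ATF4 with its partners, was found in 4 windows (11.8%), those of Trib3, Chac1, Asns and Herpud1, against 2.75% of tested genes. A match is a match of letters and was not tested as a binding site.

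Read totals were close across livers, from 16558775 to 17410160 expected counts, and 14522 to 15106 genes were listed per library. The TMM factor of S1pr2 shRNA liver 1, 1.15, was the highest, beside 0.924 to 1.03 in the other livers. S1pr2, the target, was lower in the knockdown as labelled. It stood at 4.41, 5.23 and 6.66 CPM in scramble livers 1 to 3 and at 3.04, 2.20 and 2.22 CPM in S1pr2 shRNA livers 1 to 3, a log2 fold change of -1.12 (SE 0.24, adjusted p = 0.0301). The groups did not overlap. Throughout, CPM are counts scaled to a common library size of 1e6 after TMM normalisation, fold changes are S1pr2 shRNA over scramble, and a gene is said to have risen or fallen where edgeR's quasi-likelihood test gave a Benjamini-Hochberg adjusted p below 0.05 over all 12230 genes.

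In the knockdown livers 5 of the 39 genes rose and 4 fell, and the changes ran in both directions within the same machinery. Sdf2l1, Creld2, Manf, Ddit3 and Derl3 rose, and Dnajb11, Ppp1r15b, Sel1l and Edem1 fell. The main ER chaperone Hspa5 and the transcription factor mRNAs Xbp1 and Atf4 did not pass the test. The 5 that rose were 12.8% of the set, beside 3.02% of all tested genes, and the 4 that fell were 10.3%, beside 4.64%. In 11 of the 39 genes (28.2%) every knockdown liver lay above every scramble liver, against 15.1% of all tested genes, and in 9 (23.1%) every one lay below, against 16.8%. Here and below, overlap is stated in CPM, and in the authors' FPKM it differed for some genes. In FPKM the groups of Hspa5, Dnajc3, Pdia3 and Mbtps1, below in CPM, overlapped. Those of Hsp90b1, Canx, Pdia6 and Sec61b, which overlapped in CPM, were apart in FPKM, with the knockdown livers above. The median log2 fold change of the set was -0.07, against 0.012 for all tested genes, with 17 positive and 22 negative values and 15 within 0.25 of 0. Summed over the 39 genes, the level was 7893 ± 680 CPM (SD, n = 3) in scramble and 7614 ± 242 CPM (SD, n = 3) in knockdown livers, and the groups overlapped. These calls changed with the liver left out, each such fit having 1 liver fewer. Without S1pr2 shRNA liver 2 none of the 9 passed, and without each of the other livers between 3 and 6 of the 39 did. No called gene changed sign in any alternative. With limma on log2(FPKM + 0.1), 7 rose and 1 fell, and the median of all genes was 0.16. That alternative uses no TMM factors, so it changes the unit, the scaling between livers, the test and the filter together. Of the alternatives that changed the scaling alone, upper-quartile factors gave 5 and 3, and DESeq2 size factors 5 and 4.

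**Figure D1:**
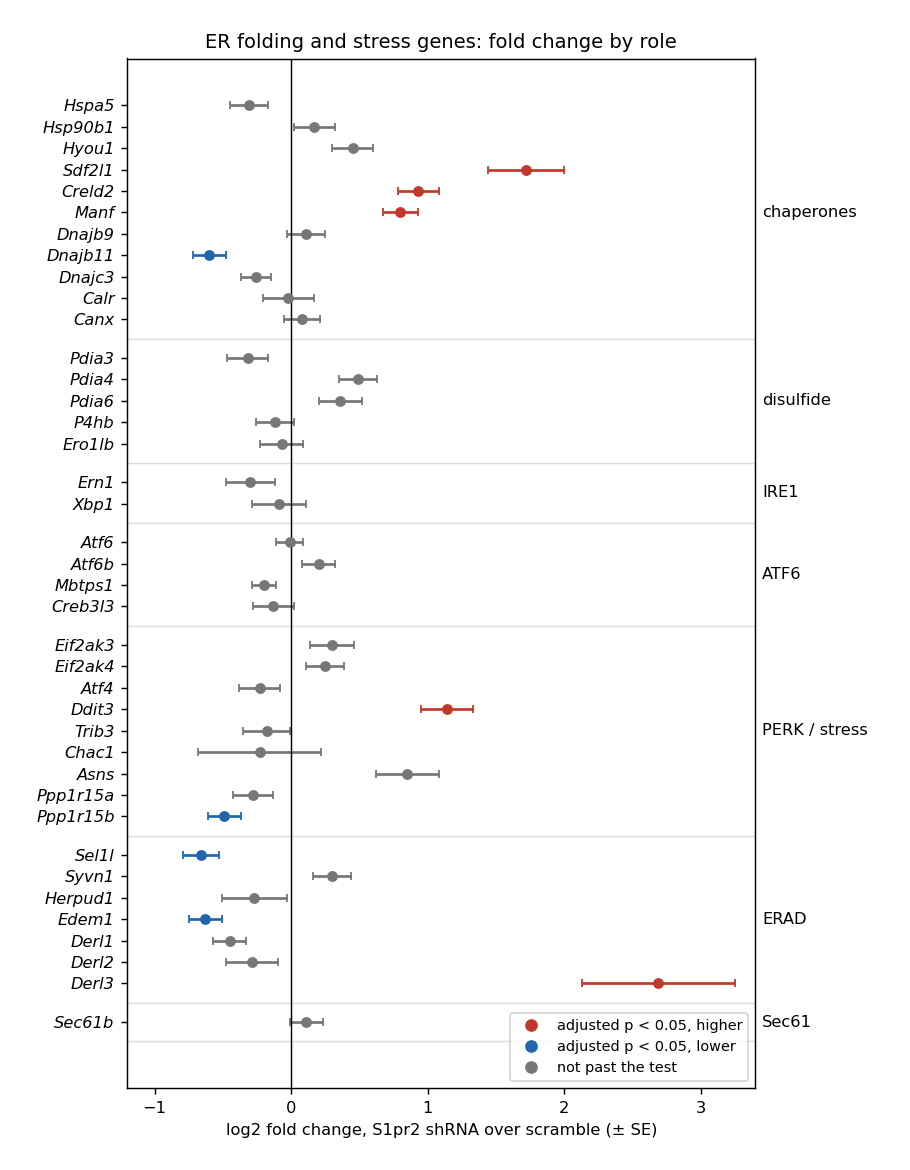
Log2 fold change of each of the 39 genes (horizontal axis, S1pr2 shRNA over scramble, bars ± SE), grouped by role, with red for the 5 genes that rose, blue for the 4 that fell and grey for the 30 that did not pass the test. Both colours appear among the chaperones, the PERK and stress genes and the degradation genes, and Derl3 has the highest value, 2.69.

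Among the 11 ER lumen chaperones and co-chaperones 3 rose and 1 fell. Sdf2l1, a partner of ER J-domain proteins and of BiP, stood at 8.88, 15.6 and 8.47 CPM in scramble livers 1 to 3 and at 37.9, 43.3 and 27.2 CPM in knockdown livers 1 to 3. Every knockdown liver was well above the highest scramble liver, with a log2 fold change of 1.72 (SE 0.28, adjusted p = 0.0189). Creld2, an ER-resident protein with disulfide isomerase activity that is induced by ER stress, stood at 28.6, 26.2 and 22.6 CPM against 53.3, 53.7 and 39.9 CPM. The groups were apart, and the log2 fold change was 0.93 (SE 0.15, adjusted p = 0.0127). Manf, a secreted and ER-retained protein that binds BiP, stood at 86.9, 108 and 86.4 CPM against 156, 175 and 159 CPM. Its log2 fold change was 0.80 (SE 0.13, adjusted p = 0.0136), again with no overlap.

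Dnajb11, the ER J-domain protein ERdj3 that hands unfolded clients to BiP, fell. It stood at 89.6, 103 and 78.6 CPM in scramble and at 57.9, 59.7 and 61.4 CPM in knockdown livers, a log2 fold change of -0.60 (SE 0.12, adjusted p = 0.0252). The 3 knockdown livers lay close together, and all were below the lowest scramble liver. The call ended in 5 of the 6 fits that left out a liver and on the FPKM scale.

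Hspa5, which encodes BiP, the central Hsp70 chaperone of the ER lumen, stood at 669, 738 and 608 CPM in scramble and at 549, 500 and 573 CPM in knockdown livers. The knockdown livers were all below in CPM, but the log2 fold change of -0.31 (SE 0.14) had an adjusted p of 0.228. In FPKM the groups overlapped, at 227.67 to 266.4 in scramble and 192.94 to 247.5 in knockdown livers. The Hspa5 promoter holds the element shown first, as those of the risen genes Creld2 and Derl3 do. Hyou1, an Hsp70-like exchange factor for BiP, stood at 160, 178 and 127 CPM against 206, 225 and 202 CPM, above in every knockdown liver, with an adjusted p of 0.114 that passed the threshold with DESeq2's Wald test and on the FPKM scale. Dnajc3, another J-domain partner, was below in every knockdown liver at a log2 fold change of -0.26 (adjusted p = 0.210). The lectin chaperones Calr and Canx, which hold glycoproteins during folding, had log2 fold changes of -0.02 and 0.08, and Hsp90b1 and Dnajb9 of 0.17 and 0.11, all with overlapping groups. As a sum the 11 genes stood at 3587 ± 467 CPM (SD, n = 3) in scramble and 3669 ± 153 CPM (SD, n = 3) in knockdown livers, and the groups overlapped.

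**Figure D2:**
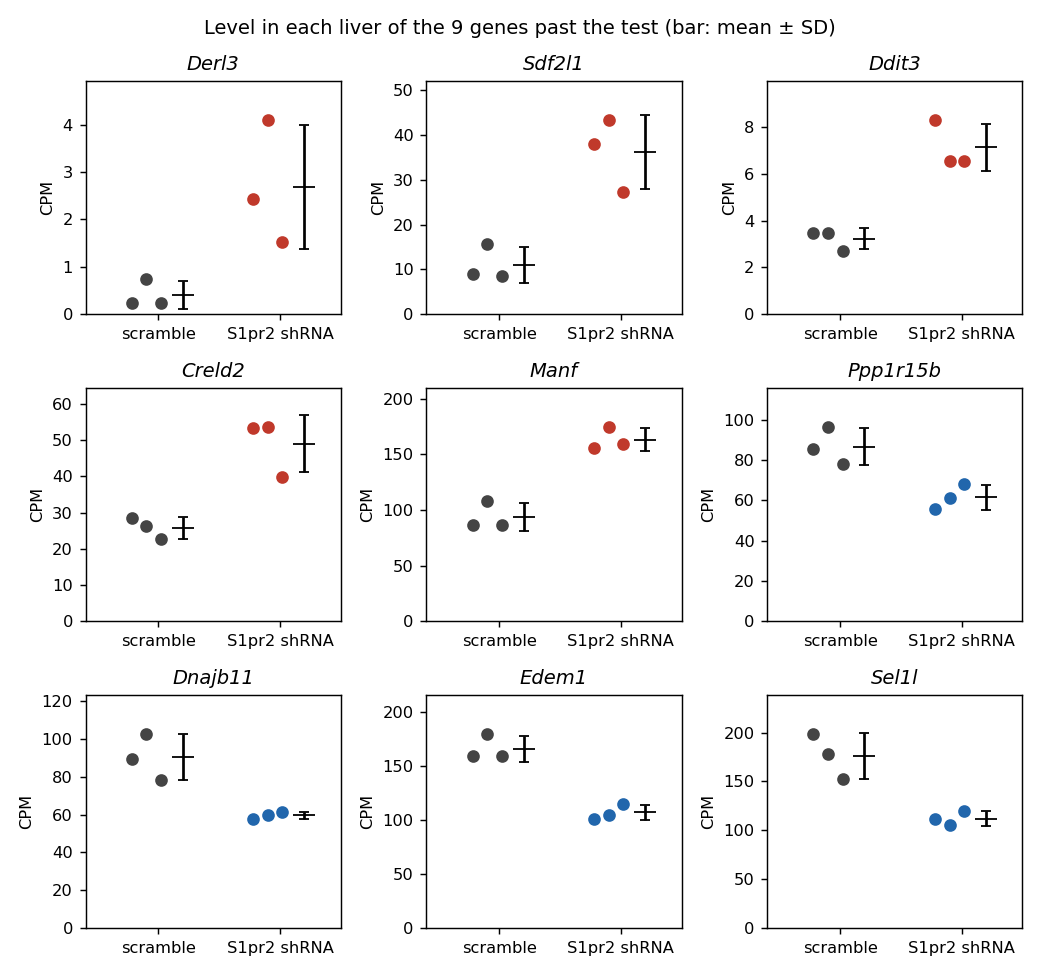
Level in CPM (vertical axes from 0) of the 9 genes past the test in each of the 3 scramble and 3 S1pr2 shRNA livers, with the mean and SD of each group beside the points. In all 9 panels the 2 groups are separate, and the knockdown livers of Derl3 run from 1.52 to 4.10 CPM and those of Sdf2l1 from 27.2 to 43.3 CPM.

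None of the 5 disulfide bond genes passed the test. This role and the next 2, the IRE1 and ATF6 arms, hold few genes. For so few, none called is near the shares among all tested genes, 3.02% risen and 4.64% fallen. Pdia4, a protein disulfide isomerase, stood at 192, 223 and 165 CPM in scramble and at 263, 281 and 271 CPM in knockdown livers. All knockdown livers were above, and the log2 fold change of 0.49 (SE 0.14) had an adjusted p of 0.0785, which passed the threshold with DESeq2's Wald test and on the FPKM scale. Pdia6, another isomerase, stood at 180, 249 and 193 CPM against 263, 294 and 238 CPM, with overlapping groups and an adjusted p of 0.224. Pdia3, the isomerase that works with Calr and Canx, moved the other way, from 461 ± 65.4 to 369 ± 15.3 CPM (SD, n = 3 each), below in every knockdown liver but with an adjusted p of 0.228. P4hb, the most abundant isomerase of the set, and Ero1lb, an oxidase that recharges isomerases, had log2 fold changes of -0.12 and -0.07 with overlapping groups.

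Neither gene of the IRE1 arm passed the test. Xbp1 stood at 149, 236 and 192 CPM in scramble and at 148, 208 and 187 CPM in knockdown livers, nearly the same range in both groups, with a log2 fold change of -0.09 (SE 0.20, adjusted p = 0.829). Ern1, which encodes IRE1α, stood at 38.0, 60.1 and 46.0 CPM against 45.5, 35.7 and 35.4 CPM, with overlapping groups and an adjusted p of 0.355. The tables list 2 Xbp1 transcripts and give the mean length weighted by their estimated shares. It was 2254.46, 2253.47 and 2254.74 bases in scramble and 2254.33, 2257.00 and 2254.70 bases in knockdown livers, a span of 3.53 bases with overlapping groups. The shares themselves were not analysed here, so these lengths give no splicing level.

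Of the ATF6 arm 0 of 4 genes passed, and all had log2 fold changes between -0.20 and 0.20. Atf6 itself had a value of -0.01. Atf6b, its paralogue, stood at 21.0, 20.9 and 17.7 CPM in scramble and at 22.4, 25.1 and 21.3 CPM in knockdown livers, just above in every liver (adjusted p = 0.323). Mbtps1, the Golgi site-1 protease that cuts ATF6, stood at 62.9, 63.5 and 66.0 CPM against 57.4, 55.4 and 55.0 CPM, below in every liver at a log2 fold change of -0.20 (SE 0.09, adjusted p = 0.210). Of the 11 genes of the set with more than 1 listed transcript, Mbtps1 alone had weighted transcript lengths apart between groups. They were 4247.88, 4248.01 and 4251.33 bases in scramble and 4254.58, 4256.31 and 4252.69 bases in knockdown livers, a span of 8.43 bases. The share of all genes with lengths apart was not computed, so this is a description only and not a trait of Mbtps1. Creb3l3, a liver relative of ATF6 that controls lipid and acute phase genes, had a log2 fold change of -0.13 with overlapping groups.

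Among the 9 genes of the eIF2α kinases and the integrated stress response 1 rose and 1 fell. Ddit3, which encodes the stress transcription factor CHOP, stood at 3.49, 3.48 and 2.72 CPM in scramble and at 8.30, 6.55 and 6.56 CPM in knockdown livers. The level was low in both groups, which did not overlap, and the log2 fold change was 1.14 (SE 0.19, adjusted p = 0.0142). Ppp1r15b, the constitutive regulatory subunit that brings a phosphatase to eIF2α, stood at 85.4, 96.5 and 78.0 CPM against 55.6, 61.0 and 67.9 CPM. Its fall, at a log2 fold change of -0.49 (SE 0.12, adjusted p = 0.0485), lay near the threshold and was lost in each of the 6 fits that left out a liver. Both genes had fractional counts in 5 libraries, so some of their reads were shared with other genes.

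Atf4, which is controlled chiefly at translation, stood at 81.5, 122 and 96.2 CPM in scramble and at 84.1, 83.2 and 87.7 CPM in knockdown livers. The groups overlapped, and the scramble livers were spread more widely (99.8 ± 20.4 against 85.0 ± 2.37 CPM, SD, n = 3 each; adjusted p = 0.394). The ATF4 targets differed in sign. Asns, asparagine synthetase, stood at 3.49, 4.42 and 4.66 CPM against 9.76, 7.17 and 5.68 CPM, above in every knockdown liver with an adjusted p of 0.0660, whereas the pseudokinase Trib3 and the glutathione-degrading enzyme Chac1 had log2 fold changes of -0.18 and -0.23 with overlapping groups. All 3 carry the amino acid response core in their window. Ppp1r15a, the stress-induced counterpart of Ppp1r15b, had a log2 fold change of -0.28 (SE 0.15). The kinase genes Eif2ak3, which encodes PERK, and Eif2ak4, which encodes the amino acid sensor GCN2, had values of 0.30 and 0.25, and neither passed the test.

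Of the 7 ER-associated degradation genes 1 rose and 2 fell. Sel1l, the scaffold of the HRD1 ubiquitin ligase, stood at 199, 178 and 152 CPM in scramble and at 111, 105 and 120 CPM in knockdown livers. The log2 fold change was -0.66 (SE 0.13, adjusted p = 0.0260), and the groups did not overlap. Edem1, which trims mannose from misfolded glycoproteins and marks them for disposal, stood at 159, 180 and 159 CPM against 101, 105 and 115 CPM. It fell by 0.63 on the log2 scale (SE 0.12, adjusted p = 0.0192), with every knockdown liver below every scramble liver. Sel1l lost its call on the FPKM scale, with the replicate block and in 5 of the 6 fits that left out a liver, and Edem1 kept it in 13 of the 16 alternatives.

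Derl3, a derlin of the retrotranslocation channel, went the other way from a very low base. Its counts were 4, 12 and 4 in scramble and 48, 67 and 26 in knockdown livers, which is 0.245, 0.747 and 0.242 CPM against 2.43, 4.10 and 1.52 CPM. The log2 fold change was 2.69 (SE 0.56, adjusted p = 0.0285). Its relatives Derl1 and Derl2 did not pass the test. Derl1 stood at 145, 151 and 135 CPM against 98.7, 99.8 and 118 CPM, below in every knockdown liver with an adjusted p of 0.0586, and Derl2 had a log2 fold change of -0.29 with overlapping groups. Per length, the scramble means were 42.9 FPKM for Derl1, 29.6 FPKM for Derl2 and 0.29 FPKM for Derl3. In the knockdown livers Derl3 reached a mean of 2.11 FPKM, still far under Derl1 at 34.9 FPKM.

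Syvn1, the HRD1 ligase that Sel1l holds, stood at 80.4, 85.2 and 60.6 CPM in scramble and at 101, 89.9 and 87.1 CPM in knockdown livers. It lay above in every liver with an adjusted p of 0.255, opposite in sign to Sel1l. Herpud1, a partner of the ligase, had a log2 fold change of -0.27 (adjusted p = 0.548) and varied widely among scramble livers, from 214 to 401 CPM. Summed over the 7 degradation genes, the level was 1071, 942 and 951 CPM in scramble and 796, 757 and 761 CPM in knockdown livers, with no overlap in CPM. In the authors' FPKM the same sum overlapped between groups. Syvn1 and Derl3 went the other way from the CPM sum. How often sums of other genes lie apart was not computed. In CPM the sum of the eIF2α kinase and integrated stress genes was also lower in every knockdown liver, at 221, 272 and 230 CPM against 211, 203 and 213 CPM. In FPKM it overlapped between groups. Atf4 (mean 99.8 to 85.0 CPM) and Ppp1r15b (mean 86.6 to 61.5 CPM) weighed most in it, whereas Ddit3, Asns, Eif2ak3 and Eif2ak4 had positive log2 fold changes. Sums of the other roles overlapped between groups in CPM. Sec61b, a subunit of the channel through which proteins enter the ER, stood at 40.0, 48.3 and 52.0 CPM against 49.4, 52.5 and 49.9 CPM (adjusted p = 0.610).

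**Figure D3:**
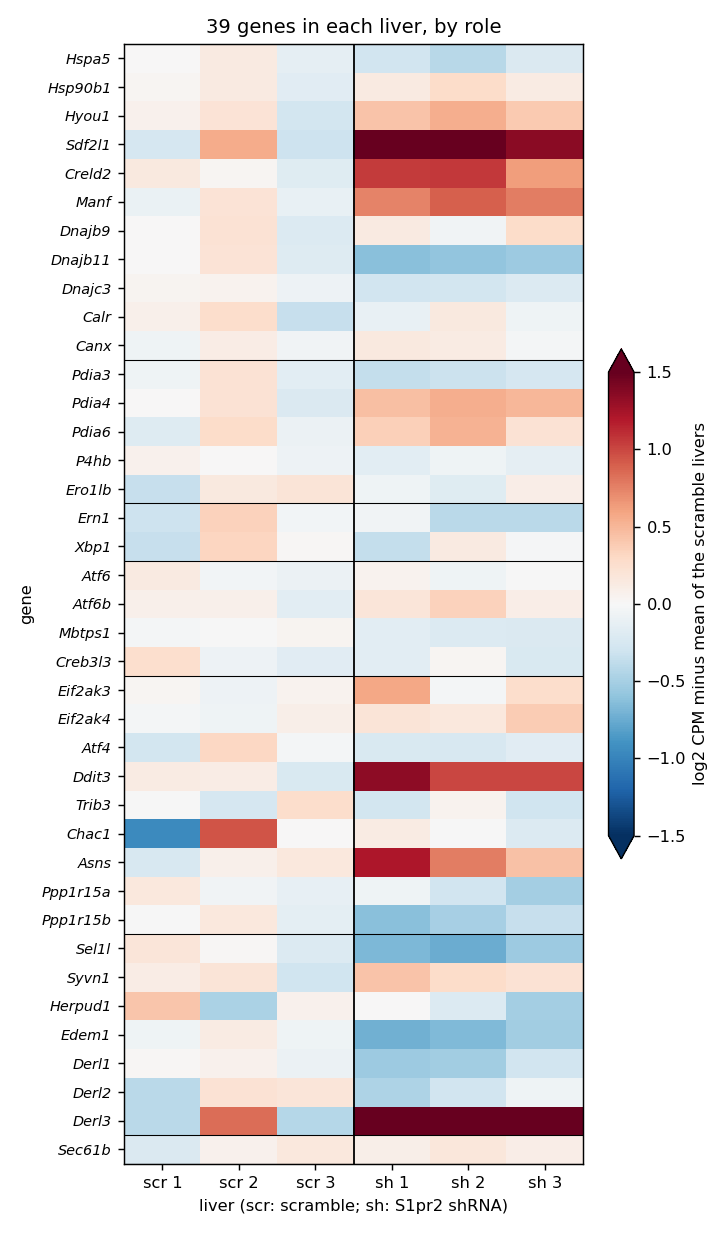
Each cell gives the log2 CPM of 1 gene (rows, by role) in 1 liver (columns) minus the mean of the 3 scramble livers, red above and blue below. Sdf2l1, Creld2, Manf, Ddit3 and Derl3 are red in all 3 knockdown livers and Dnajb11, Ppp1r15b, Sel1l and Edem1 blue in all 3.

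Calls are given next by level within the set, beside 3.02% risen and 4.64% fallen among all tested genes of any level. In a class of 10 genes, none called is near those shares. Of the 10 genes with the highest scramble FPKM, from 80.4 to 523, none passed the test and the log2 fold changes ran from -0.32 to 0.36. Of the 19 genes between 10.2 and 69.7 FPKM 2 rose and 4 fell, and of the 10 at 0.29 to 9.39 FPKM 3 rose and none fell. The ER stress element was found at all of these levels. Of the 10 genes with the element, 2 rose (Creld2 and Derl3), none fell, and the 8 others had log2 fold changes from -0.31 (Hspa5) to 0.36 (Pdia6), with a median of 0.12 over the 10. Among the 4 risen genes with a window 2 had the element, and among the 3 fallen genes with a window none did. These small counts stand beside 10 of the 34 genes of the set with a window (29.4%). Over all tested genes with a window, 2 of 279 that rose (0.717%) and 2 of 450 that fell (0.444%) had it. The 2 that rose are Creld2 and Derl3 themselves, so that share adds no gene from outside the set. The 2 that fell are not in the set. No link between element and direction was tested. Sdf2l1 rose without this exact match in its window.

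**Figure D4:**
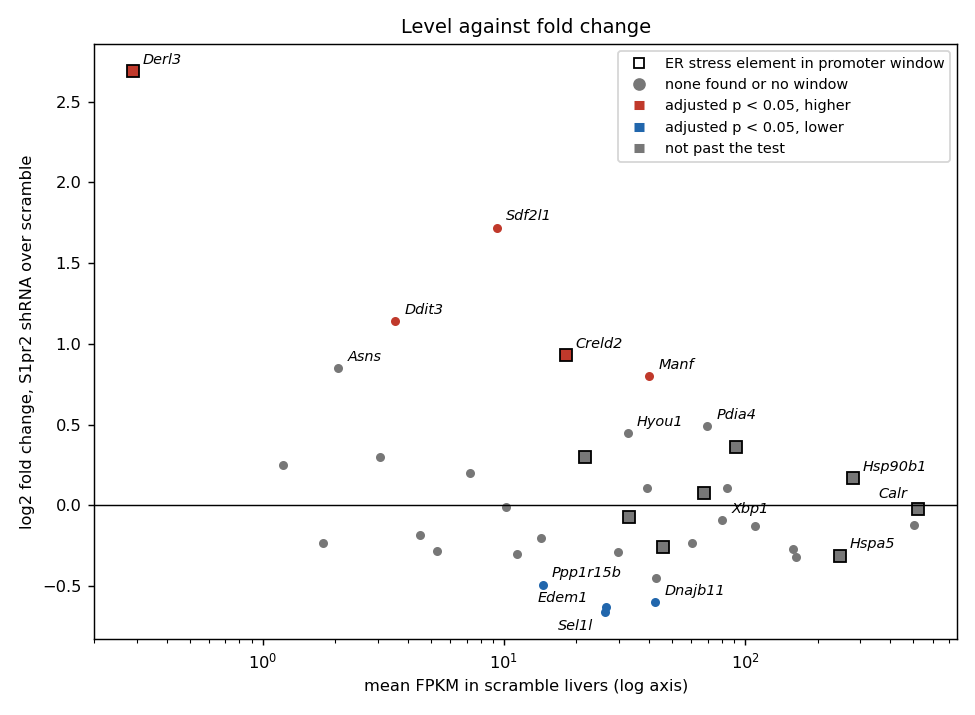
Mean FPKM of the scramble livers (horizontal, log axis) against the log2 fold change (vertical) of the 39 genes, with framed squares for the 10 whose promoter window holds the ER stress element. The 10 genes from 80.4 FPKM upward lie between -0.32 and 0.36, and squares lie among risen genes (Creld2, Derl3) and among genes that did not pass the test (Hspa5, Calr, Hsp90b1).

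Lists of further genes of the same pathway, 150 in 7 lists, gave 144 tested genes, of which 4 rose (2.78%, beside 3.02% of all tested genes) and 11 fell (7.64%, beside 4.64%), with a median log2 fold change of -0.07. The counts of the single lists are small, and each is given as a description. Ganab, the catalytic subunit of glucosidase II that trims glucose from new glycoproteins, stood at 190, 188 and 163 CPM in scramble and at 59.3, 65.9 and 65.9 CPM in knockdown livers. Its log2 fold change was -1.50 (SE 0.12, adjusted p = 0.00249), and it did not overlap between groups and passed the test in all 16 alternatives. Uggt1, which puts glucose back on glycoproteins that are still unfolded, stood at 101, 108 and 87.6 CPM against 59.2, 60.4 and 58.1 CPM (log2 fold change -0.74, adjusted p = 0.00983). These were the 2 of 6 N-glycan processing genes that fell, and none rose.

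Of the 30 genes of translocation, signal peptidase and oligosaccharyltransferase 1 rose and 2 fell. Spcs2, a subunit of signal peptidase, stood at 178, 175 and 190 CPM in scramble and at 94.3, 94.1 and 106 CPM in knockdown livers, a log2 fold change of -0.88 (SE 0.11, adjusted p = 0.00633). Spcs3, another subunit of the same enzyme, rose from 47.8 ± 5.71 to 69.7 ± 1.34 CPM (SD, n = 3 each; adjusted p = 0.0256). Ssr3, a subunit of the translocon-associated complex, fell from 361 ± 21.7 to 237 ± 19.8 CPM (SD, n = 3 each; adjusted p = 0.0298).

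Of the 18 tested further ER oxidoreductases 2 rose and 1 fell. Pdilt, a disulfide isomerase relative best known from testis, stood at 1.59, 3.67 and 2.24 CPM in scramble and at 17.9, 14.7 and 10.8 CPM in knockdown livers. Its rise, a log2 fold change of 2.53 (SE 0.32, adjusted p = 0.00751), passed in all 16 alternatives. Pdia5 rose at a log2 fold change of 0.56 (adjusted p = 0.0306) and Tmx3, a membrane-bound isomerase, fell by 0.64 on that scale (adjusted p = 0.0253). Of 22 other chaperones and prolyl isomerases none rose and 2 fell, the J-domain genes Dnajc10 and Dnajc25, by 0.53 and 0.64 on the log2 scale (adjusted p = 0.0228 and 0.0136).

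Of 25 further degradation genes 1 rose and 3 fell. Fam8a1, a cofactor of the HRD1 ligase, fell from 19.6 ± 1.93 to 12.0 ± 0.320 CPM (SD, n = 3 each; adjusted p = 0.0118), Ngly1, which strips glycans from retrotranslocated proteins, from 37.5 ± 3.14 to 24.7 ± 1.82 CPM (adjusted p = 0.0178), and Ubxn6, a cofactor of the p97 ATPase, from 42.0 ± 0.807 to 30.3 ± 2.59 CPM (adjusted p = 0.0294). The ligase gene Rnf139, outside the naming rule and named because it was the only riser of this list, had a log2 fold change of 0.43 (adjusted p = 0.0455) and fractional counts in all 6 libraries. Of 13 tested stress sensors and regulators none passed. The smallest p was that of Mbtps2, the site-2 protease that completes ATF6 cleavage, at a log2 fold change of -0.43 (adjusted p = 0.180). Of 30 tested further ATF4 and integrated stress targets none rose and 1 fell, Tars, the threonyl-tRNA synthetase gene, from 202 ± 51.5 to 96.0 ± 11.7 CPM (SD, n = 3 each; adjusted p = 0.0224).

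In bulk liver, fewer cells of a type and less RNA per cell cannot be told apart. Hepatocyte markers were present at high levels, and their summed level was lower in every knockdown liver, 96562 to 134304 CPM against 141344 to 172189 CPM, although 0 of 8 passed the test. The sum of the 8 endothelial markers was higher, 210 to 231 CPM against 175 to 187 CPM, and 4 of them rose. Of the B and plasma cell markers, Cd79a stood at no more than 0.367 CPM in any liver. Mzb1, an ER chaperone of plasma cells, stood at 0.187 to 0.674 CPM in scramble and 0.304 to 0.527 CPM in knockdown livers, and Jchain at 0.858 to 2.24 CPM against 1.72 to 2.87 CPM, and both overlapped. Nearly the whole sum of that list came from Sdc1, which hepatocytes also express. Macrophage, stellate, cholangiocyte, neutrophil and erythroid marker sums overlapped between groups, with the neutrophil marker Ly6g listed in no liver. T and NK cell markers summed to 0.124 to 0.605 CPM in scramble and 0.607 to 1.35 CPM in knockdown livers. The part of any of these cell types in the results above was not tested.

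**Figure D5:**
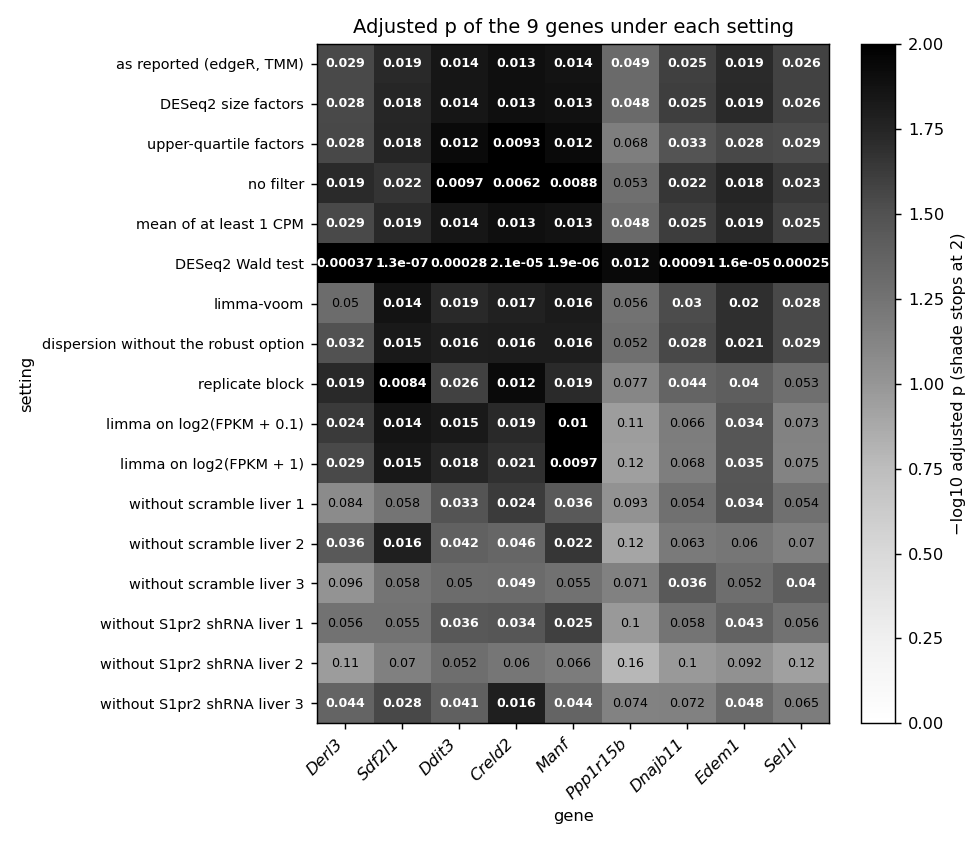
Adjusted p of the 9 genes past the test (columns) as reported and in 16 alternatives (rows), with darker cells for smaller p and bold white figures under 0.05. Creld2 passed in 15 of the 16 alternatives, Manf and Ddit3 in 14, Ppp1r15b in 3, and none passed without S1pr2 shRNA liver 2.

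Across the 16 alternatives, the 5 genes that rose passed in 11 (Derl3) to 15 (Creld2), and the 4 that fell in 3 (Ppp1r15b) to 13 (Edem1). Sdf2l1 passed in 12, but in only 2 of the 6 that left out a liver, with adjusted p up to 0.0701. Derl3 passed in 2 of those 6, with adjusted p up to 0.110 and log2 fold changes from 1.24 to 3.41 over all alternatives. Signs of 7 genes that did not pass the test (Calr, P4hb, Ero1lb, Xbp1, Atf6, Creb3l3 and Chac1) depended on the setting.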

How the data were processed

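Livers had been snap frozen and total RNA sequenced on a DNB platform, per the labels' protocols. The submitters' processing notes name HISAT2, Bowtie2, RSEM 1.2.12, DESeq2 and the mm9 build. The deposited tables give, per gene, the authors' expected count from RSEM (not scaled to depth), the authors' FPKM and a transcript length. Genes missing from a table were taken as 0 counts.

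Here expected counts were rounded and filtered with filterByExpr (minimum count 10). They were normalised by TMM and tested with edgeR 4.0.16 (glmQLFit, robust, and glmQLFTest; R 4.3.3), two-sided, with Benjamini-Hochberg adjustment over the 12230 genes. SE is the absolute log2 fold change divided by the root of F. The script was tested on simulated data. Between 24.5 and 25.2% of listed genes per library had fractional counts. The common biological coefficient of variation was 20%. Alternatives used DESeq2 1.42.0, limma 3.58.1, other scalings and filters, a replicate block, FPKM with pseudocounts of 0.1 and 1 (mean FPKM of at least 0.1) and leaving out each liver. The FPKM fits used the authors' FPKM without TMM factors. How strand was handled is not stated in the submitters' notes.

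The members and lists were chosen with earlier results of these data known, so no list was tested. Values per liver are given for members past the test, the 2 of each role with the smallest p, and Hspa5, Xbp1, Atf4 and Ddit3; of each other list, up to 3 called genes with the smallest p, or 1 where none was called. Asns, Hyou1, Derl1 and Syvn1 were added after their values were seen. Coordinates are those of RefSeq GRCm38.p6, not of the mm9 build.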

Additional observations from a re-analysis of the deposited data

How the results depend on the processing

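As reported, 369 genes rose and 568 fell (60.6% of calls lower); upper-quartile factors gave 48.5% lower, and limma on FPKM gave 30.8% and 30.6% lower with pseudocounts of 0.1 and 1, with the median of all genes at 0.08, 0.16 and 0.10. Upper-quartile factors raised the risers among the further pathway genes from 4 to 7. DESeq2's Wald test called 1461 genes, 8 risers in the set and 18 fallen further pathway genes. On FPKM, with both pseudocounts, 1 gene of the set and 7 further pathway genes fell, and the median of the set was 0.10 and 0.09, or -0.06 and -0.01 relative to all genes, against -0.08 as reported. Deviations of same-numbered livers had correlations of -0.062, 0.222 and -0.116, within -0.301 to 0.301 over all pairs between groups. With 3 livers per group these cannot settle whether the numbers pair livers, which the labels do not say. With the replicate block 2 genes of the set fell instead of 4. Leaving out each liver gave 231 to 643 called genes, 0 to 5 risers and 0 to 2 fallen genes in the set, a set median of -0.11 to 0.07, and 1 to 3 risers and 2 to 10 fallen genes among the further pathway genes. The fit without S1pr2 shRNA liver 2 gave 231 called genes, 0 risers and 0 fallen in the set and 2 fallen further genes, and the fit without scramble liver 2 also gave 0 fallen in the set; leaving out a liver also lowers the sample number. Xbp1 reversed, to 0.07 on FPKM with either pseudocount, 0.07 without scramble liver 2 and 0.03 without S1pr2 shRNA liver 1, within a range of -0.24 to 0.07 over the fits without 1 liver; the cause was not tested. Derl3 had only 4 to 12 counts per scramble liver.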
